A study of Mus musculus with 39 samples.

Results

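The mouse miRNA family of miR-148a, miR-148b and miR-152 was followed through 5 days of endoderm differentiation of embryonic stem (ES) cells. Its members were found by name as mmu-miR-148a, mmu-miR-148b and mmu-miR-152, 3 of the 650 mouse miRNAs on the array. The ES line, TCL-1, was grown on mitomycin C-treated mouse embryonic fibroblast (MEF) feeders. Before differentiation a short plating on gelatin was used to remove them, and how fully it did so was not tested. All differentiating cells, controls included, were kept in RPMI medium with B27 and sodium butyrate, as the labels name it. They received Activin A at 100 ng/ml, Wnt3a at 50 ng/ml, the pair together at these doses, called both factors here, or no factor (control), and were harvested on days 1, 3 and 5. With untreated ES cells this made 13 groups of 3 samples, 1 array each, all from 1 cell line. Nothing in the labels says that replicates came from separate cultures, so p-values measure only the spread between these samples, which may be technical. RNA came from whole cultures, in which fewer cells of a type and less RNA per cell cannot be told apart.

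A miRNA guides the Argonaute protein to messenger RNAs that pair with its seed, the stretch near its 5′ end, and lowers their translation and stability. This family is known for acting on DNA methyltransferase messages, among them Dnmt1, which copies methylation to the new DNA strand, and Dnmt3b, a de novo enzyme. Activin A is the ligand commonly used to drive ES cells to definitive endoderm, and Wnt3a activates beta-catenin signalling.

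The mature sequences are shown because all of the family shares a seed and differs at few other bases. How far the arrays' probes tell the members apart was not tested. They are RefSeq's records on GRCm38.p6, written 5′ to 3′, with the seed (bases 2 to 8) in capitals.
mmu-miR-148a-3p: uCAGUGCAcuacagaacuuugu
mmu-miR-148b-3p: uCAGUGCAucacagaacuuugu
mmu-miR-152-3p: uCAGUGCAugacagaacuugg
These strands lie at chr6:51269829-51269850 on the minus strand, chr15:103285185-103285206 on the plus strand and chr11:96850439-96850459 on the plus strand, so that each member has a locus of its own. Counted from 1 at the 5′ end, miR-148b differed from miR-148a at 2 of 22 bases (C9U and U10C), and miR-152 differed from miR-148b at 2 of the 21 bases compared (C10G and U20G). Of 1679 mature mouse miRNAs in the RefSeq table, only these 3 had CAGUGCA at bases 2 to 8. In the RefSeq gene table Mir148b lay within the span of Copz1 and Mir152 within that of Copz2, the genes of related coatomer zeta subunits, and Mir148a lay within the span of Gm38821.

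The arrays measured total RNA in 1 colour, and their signals were quantile-normalized, floored at 2 and taken to log2, called the log2 level here. Between 183 and 375 miRNAs were detected per array, and no spot was saturated. Each member was measured by 2 probes of 10 spots, and a miRNA's deposited signal is the sum over the probes that the scanner software called detected. For miR-148a both probes entered the sum on all 39 arrays. For miR-148b both entered on 13 arrays, the brighter alone on 24 and neither on 2. For miR-152 both entered on 16 arrays, the brighter alone on 7 and neither on 16. A step in the deposited signal can therefore follow from the inclusion of a probe, and results that rest on such a step are also given for the brighter probe alone. In that setting, arrays on which the member was not detected stay at the floor. The other strand of the miR-148a hairpin, miR-148a*, was detected on 0 of 39 arrays.

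In the authors' table of processed values, 18 of 39 columns follow the array of the other treatment, 9 labelled Activin A and 9 labelled both factors of the same day and number. The scanner files' labels were used here. Which labelling is right was not settled, and values of Activin A alone and of both factors would change places under the other. The average over both Activin A groups is free of this. The day 5 Wnt3a replicate 1 array stood apart from the rest. It lay 1.14 log2 units (root mean square over 143 miRNAs detected on all arrays) from its replicates.

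miR-152 went from below detection to a clear signal in every culture, and its level on day 5 was about 2 times higher with Activin A than without. It was not detected on any of the 3 ES or 12 day 1 arrays. On day 3 the control arrays gave log2 levels of 2.83 and 2.86, with replicate 2 not detected, and the Wnt3a arrays gave 2.91, 3.04 and 2.95. With Activin A the day 3 arrays gave 4.46, 3.52 and 4.48, and with both factors 3.95, 2.83 and 3.49. The Activin A arrays thus lay above the Wnt3a and the detected control arrays on day 3, whereas the arrays with both factors overlapped them. This separation follows the detection calls in part. Before normalization the brighter probe read 11.7 on the undetected control array, 9.73 on Activin A replicate 2 and 9.65 to 10.6 with Wnt3a. The dimmer probe was counted on 2 of the Activin A arrays and on no control or Wnt3a array of this day.

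On day 5 the control arrays gave 4.11, 4.43 and 4.37 and the Wnt3a arrays 4.05, 4.31 and 4.26. Activin A gave 5.37, 5.30 and 5.40, and both factors gave 5.30, 5.05 and 5.29. All 6 arrays with Activin A lay above all 6 without it, by more than the spread within any group. The log2 level was 1.05 higher with Activin A than in control (SE 0.11, 2.08-fold, adjusted p = 5.52e-05) and 0.91 higher with both factors (1.88-fold, adjusted p = 0.000112). With Wnt3a alone the difference was -0.10 (95% interval -0.34 to 0.15, adjusted p = 0.663), and adding Wnt3a to Activin A changed the level by -0.15 (-0.40 to 0.10, adjusted p = 0.816, where 4.89% of miRNAs passed). These contrasts share the control arrays, and across all miRNAs 37.5% passed for Activin A, 46.2% for both factors and 8.15% for Wnt3a.

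**Figure D1:**
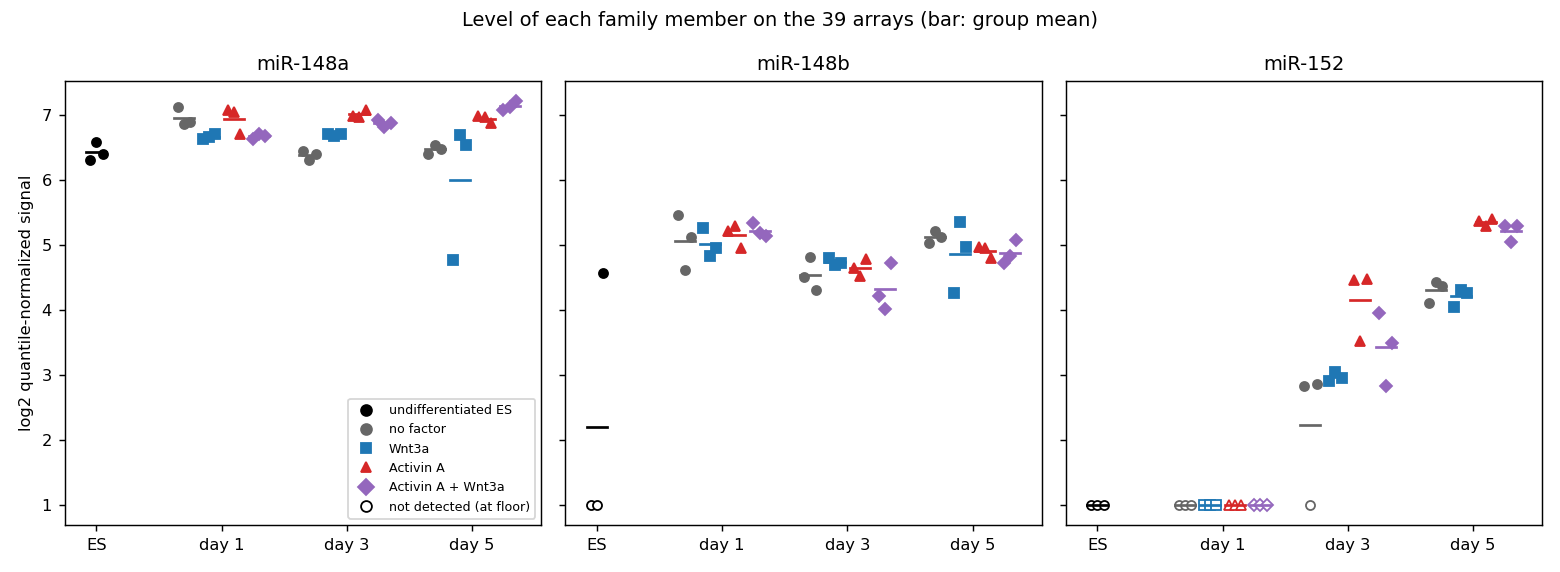
The log2 quantile-normalized signal of each member is plotted for every array by day, with colours for the treatments, a bar for each group mean, and open symbols at the floor for arrays on which the member was not detected. miR-152 appears on day 3 and reaches 5.05 to 5.40 on day 5 with Activin A against 4.05 to 4.43 without, while miR-148b has no such separation and the Wnt3a day 5 replicate 1 array stands low for miR-148a at 4.77.

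The average effect of Activin A on miR-152, taken over cultures with and without Wnt3a, was 1.03 on day 5 (SE 0.08, adjusted p = 3.85e-06), and 51.1% of miRNAs passed in this comparison. Under the 16 alternative settings it passed with the adjusted p at most 0.000708, and its size ran from 0.21 with normexp background correction, which adds an offset and compresses low signals, to 1.57 in the authors' table. The median over miRNAs detected on all arrays was 0.16 in the same comparison and -0.0047 when arrays were scaled to the 75th percentile over those miRNAs, where miR-152 was 0.51 higher. Arrays of both kinds shared slides on day 5. On slide 5, 2 Activin A arrays averaged 5.34 and 3 control arrays 4.30, a difference of 1.03. On slide 4, 3 arrays with both factors averaged 5.21 and 3 Wnt3a arrays 4.21, a difference of 1.00. The effect was therefore as large within a slide as over all arrays.

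On day 3 the same average effect was 1.19 (SE 0.36, adjusted p = 0.0164, with 60.7% of miRNAs passing). Activin A alone gave 1.93 (adjusted p = 0.00892) and both factors 1.20 (adjusted p = 0.0672). The day 3 arrays with both factors lay on slide 5, which held no other day 3 array, and were scanned on another day than the rest. Every day 3 value of both factors against control therefore cannot be told apart from slide. The same holds for their part in each day 3 average effect and member ratio. This day rests on signals near the detection limit. The undetected control array had a brighter-probe signal of 11.7, above the 8.35 and 8.87 of the detected control arrays. With the brighter probe alone the average effect was 0.72 (adjusted p = 0.0642), with that control array still at the floor. With normexp it was 0.069 (adjusted p = 0.00291).

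The time course of miR-152 ran the same way in each treatment. From day 3 to day 5 its log2 level rose by 2.08 in control cells (adjusted p = 1.85e-06), 1.24 under Wnt3a (0.00116), 1.21 under Activin A (0.00551) and 1.79 under both (9.90e-05). Across all miRNAs 41.6%, 44%, 15.5% and 13.9% passed in these comparisons. The miR-152 p-values come from the fit of all arrays, in which its ES and day 1 values all lay at the floor, without spread. Those groups lower the spread that the test uses, so these p-values can be too small. Within the day 3 control group, with its undetected array at the floor, the SD was 1.06. On the brighter probe alone the change was 1.07 in control cells and 1.22 with both factors, and it was 0.05 with Wnt3a and 0.61 with Activin A, neither of which passed (adjusted p = 0.981 and 0.124). The control change still holds day 3 replicate 2 at the floor as undetected, although its brighter probe read 11.7 before normalization. Against ES cells, where it was not well above background, the day 5 level of miR-152 in Activin A cells was higher by at least 1.62-fold, and in cells given both factors it was higher by at least 1.47-fold. No p is given with them, since all 3 ES arrays were at the floor. These bounds set the day 5 mean against the mean of the lowest signal detected on each ES array. They take undetected signals to lie below it. Detection calls did not always follow the signal, as on the undetected day 3 control array, so the bounds are approximate. That lowest signal was 12.3 to 34.4 in ES cells and on day 1 and 2 to 11.3 later, so no bound above 1 was reached for control or Wnt3a cells on day 5. Each of the day 3 and day 5 groups lay wholly on other slides than the earlier groups of its treatment and the ES cells. All day 5 arrays were also scanned on another day than the ES and day 1 arrays. With slide as a block the change of miR-152 from day 3 to day 5 with both factors was 1.72 and did not pass (adjusted p = 0.105). For all other changes to day 5, slide, scan and time cannot be told apart.

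The 2 probes of miR-152 are given on the raw scale, on which the median change of the 143 miRNAs detected on all arrays was 1.38 log2 units from ES cells to control cells on day 5 and 1.89 to Activin A cells on day 5. The brighter probe averaged 1.71 ± 0.65 in ES cells, 2.97 ± 1.17 in day 1 control cells, 9.64 ± 1.81 on day 3 and 19.2 ± 1.43 on day 5 (SD, n = 3 each). With Activin A it averaged 36.3 ± 2.00 on day 5, and the dimmer probe averaged 28.8 ± 1.15 there against 14.0 ± 1.89 in control cells.

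**Figure D2:**
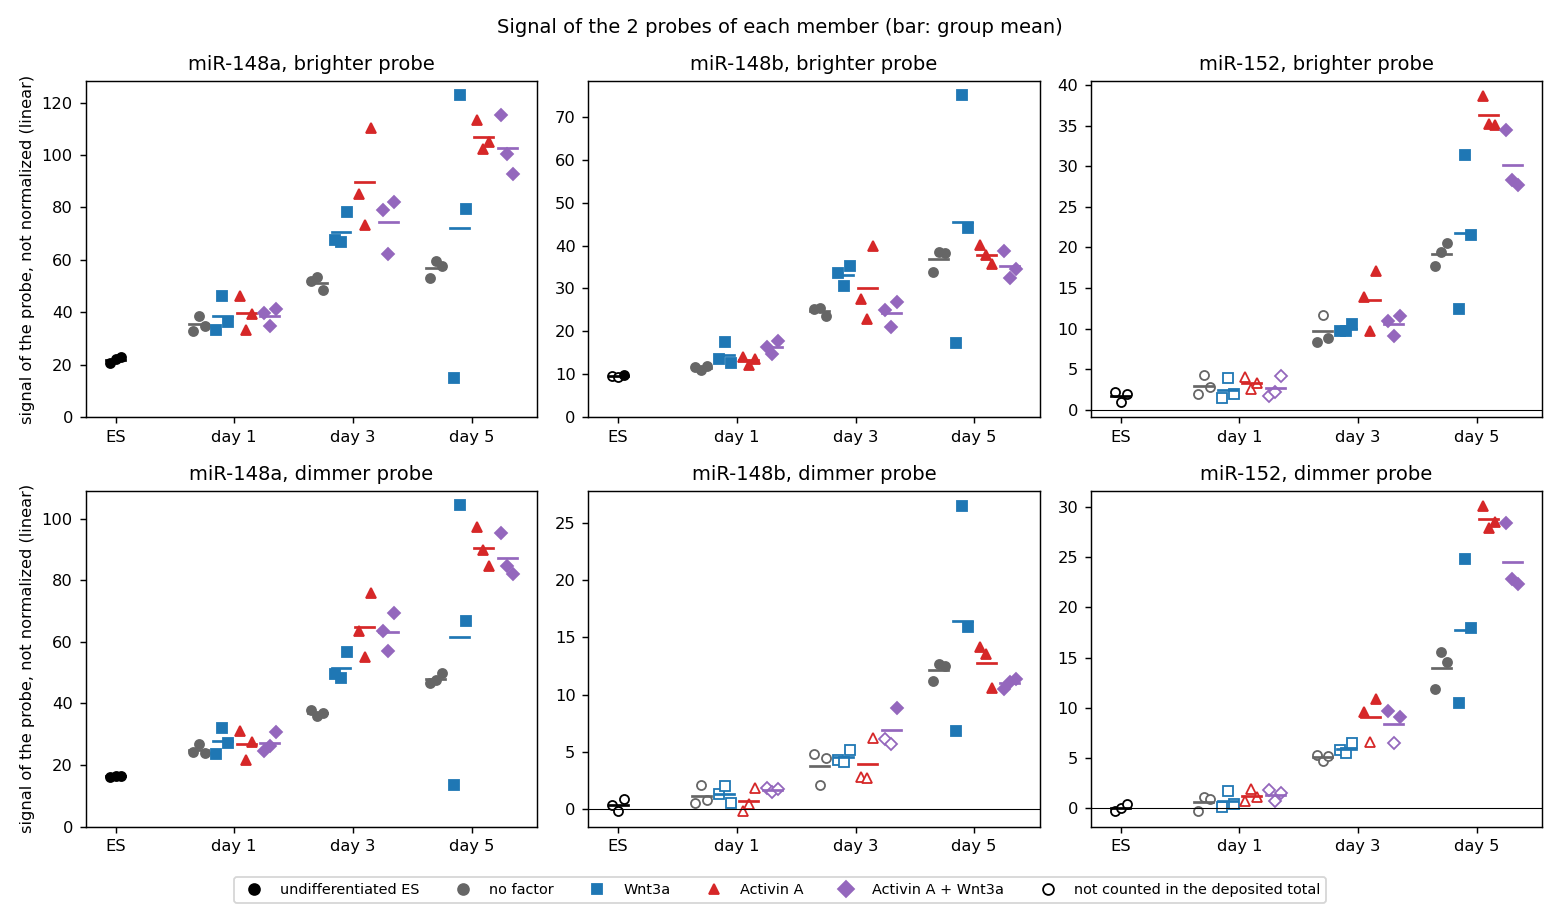
The background-subtracted signal of each member's 2 probes is plotted for every array on a linear scale without normalization, in columns by member, with open symbols where the probe was not counted in the deposited total. The miR-148b brighter probe reads 9.23 to 9.77 on all 3 ES arrays although 2 of them are listed as not detected, and the dimmer probe of miR-148b enters the total on every day 5 array.

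miR-148a was the member detected on every array, and its level was higher with Activin A on day 3, by less than 2-fold. In ES cells its log2 levels were 6.32, 6.59 and 6.40. On day 3 the control arrays gave 6.44, 6.32 and 6.40, Wnt3a 6.72, 6.68 and 6.72, Activin A 6.995, 6.97 and 7.08, and both factors 6.93, 6.82 and 6.88. The groups did not overlap, in the order control, Wnt3a, both factors and Activin A. The test over the treatments passed (adjusted p = 1.34e-05), as it did for 70.2% of miRNAs on this day.

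Against day 3 control cells miR-148a rose by 0.63 with Activin A (SE 0.05, 1.54-fold, adjusted p = 3.96e-06), by 0.49 with both factors (1.40-fold, adjusted p = 1.93e-05) and by 0.31 with Wnt3a (1.24-fold, adjusted p = 0.00126). In these comparisons 56.4%, 59.5% and 35% of all miRNAs passed. The Wnt3a value fell to 0.11 with the 75th percentile over all miRNAs (adjusted p = 0.0908) and to 0.095 with the brighter probe alone (adjusted p = 0.229), and none of the 3 passed where the spread was taken from all 39 arrays (adjusted p = 0.0661, 0.156 and 0.622). The average effect of Activin A was 0.40 (adjusted p = 5.88e-06), beside a median of -0.07 over miRNAs detected on all arrays. Its part with both factors carries the slide limit given for miR-152. The adjusted p of this average was 0.0874 in the fit of all 39 arrays, which include the Wnt3a day 5 replicate 1 array. On slide 2 alone, 3 Activin A arrays were 0.65 and 3 Wnt3a arrays 0.34 above 2 control arrays.

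The effect of Wnt3a on miR-148a on day 3 differed with and without Activin A. It was 0.31 without and -0.14 with it (adjusted p of the latter 0.0692, where 29.4% of miRNAs passed), and the interaction was -0.45 (SE 0.07, adjusted p = 0.00238, with 22.7% of miRNAs passing). The parts of this interaction moved with the processing. With Activin A present the Wnt3a effect was -0.25 with the 75th percentile over all miRNAs (adjusted p = 0.00291) and -0.31 with the brighter probe alone (adjusted p = 0.00379), and both passed. The interaction itself was -0.18 and did not pass with the authors' columns as named (adjusted p = 0.0879). The day 3 arrays with both factors lay on a slide that held no other day 3 array, so this interaction and the slide cannot be told apart.

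On day 5 the control arrays gave miR-148a log2 levels of 6.40, 6.55 and 6.48 and the Wnt3a arrays 4.77, 6.70 and 6.55. Activin A gave 6.995, 6.97 and 6.88, and both factors gave 7.08, 7.12 and 7.22. All 6 arrays with Activin A lay above all 6 without, and Wnt3a replicate 1 lay far below its group. The average effect of Activin A was 0.80 (SE 0.30, adjusted p = 0.0480), and the test over the treatments did not pass (adjusted p = 0.155, against 46.5% of miRNAs passing it). Without that array the average effect was 0.49 (SE 0.05, adjusted p = 2.38e-05). Activin A alone then gave 0.47 (adjusted p = 0.000219) and both factors gave 0.66 (adjusted p = 2.23e-05) against control, with unchanged means and a smaller spread. Within slide 5, 2 Activin A arrays were 0.51 above 3 control arrays. The 0.66 of both factors lies between slides, as given for miR-152.

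On day 1 the miR-148a levels were 7.12, 6.86 and 6.90 in control, 6.64, 6.66 and 6.72 with Wnt3a, 7.08, 7.05 and 6.72 with Activin A, and 6.64, 6.72 and 6.68 with both factors. The test over all treatments did not pass (adjusted p = 0.0786, 24.2% of miRNAs passing). The 5 control and Activin A arrays on slide 1 lay at 6.86 or above and the 7 arrays on slide 3 at 6.72 or below, the third Activin A array among these. Wnt3a and slide could be told apart on this day only through that array. Over 16 alternative settings the adjusted p of the test over the day 1 treatments ran from 0.0120 to 0.952.

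Over time in control cells, the miR-148a level on day 5 differed from that of ES cells by 0.04 (95% interval -0.48 to 0.55, adjusted p = 0.992), where 70.8% of miRNAs passed. The sign of this value turned with the 75th percentile over all miRNAs (-0.29) and the brighter probe alone (-0.39), neither of which passed. Relative to the median change of miRNAs detected on all arrays it was 0.059, and 0.068 with the 75th percentile over those miRNAs. The control level on day 3 was 0.57 below that of day 1 (adjusted p = 0.0485, with 63.5% passing), a call that is lost when any 1 of the 6 arrays is left out (-0.62 to -0.49, adjusted p from 0.0599 to 0.143). It was -0.17 with slide as a block (adjusted p = 0.945) and -1.0001 with the 75th percentile over all miRNAs (adjusted p = 0.000559). With both factors the day 5 level was 0.70 above ES cells (adjusted p = 0.0173, 63% passing), and with Activin A it was 0.51 above (adjusted p = 0.0758, 66.8% passing). Without ES replicate 1 the value for both factors was 0.64 (adjusted p = 0.0574).

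miR-148b had no treatment difference that passed on its deposited signal with all arrays. On day 3 its log2 levels were 4.51, 4.82 and 4.31 in control, 4.81, 4.70 and 4.72 with Wnt3a, 4.64, 4.53 and 4.79 with Activin A, and 4.21, 4.02 and 4.72 with both factors. On day 5 they were 5.03, 5.21 and 5.12 in control, 4.26, 5.35 and 4.97 with Wnt3a, 4.97, 4.95 and 4.81 with Activin A, and 4.72, 4.84 and 5.07 with both factors. The treatments overlapped on day 3, and on day 5 the Wnt3a arrays spanned all the others.

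The average effect of Activin A on miR-148b was -0.16 on day 3 (95% interval -0.45 to 0.13, adjusted p = 0.290) and -0.10 on day 5 (-0.47 to 0.28, adjusted p = 0.665). These intervals allow a fall of up to 0.45 and 0.47 and a rise of up to 0.13 and 0.28. The brighter probe alone gave -0.28 on day 3 (adjusted p = 0.0207) and 0.023 on day 5. With that probe the test over the day 3 treatments also passed (adjusted p = 0.00406), and both factors were -0.47 against control (adjusted p = 0.00914). Without replicate 3 of both factors on day 3 the same tests gave an adjusted p of 0.0202 and -0.43 (adjusted p = 0.0309). Without Wnt3a replicate 1 the day 5 value was -0.25 (adjusted p = 0.0401).

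miR-148b was detected on 1 of 3 ES arrays, at 4.57, and on all 36 others. On day 1 the control arrays gave 5.46, 4.62 and 5.12, and the 12 day 1 arrays ran from 4.62 to 5.46. The fitted rise from ES cells to day 1 control cells, 2.88 (adjusted p = 3.95e-05, 30.3% of miRNAs passing), rests on the 2 ES arrays at the floor. The brighter probe read 9.52 ± 0.27 in ES cells and 11.5 ± 0.51 on day 1 (SD, n = 3 each) before normalization, far closer than the fitted values. In control cells neither the change from day 1 to 3 (-0.52, adjusted p = 0.399) nor that from day 3 to 5 (0.58, adjusted p = 0.442) passed for miR-148b.

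**Figure D3:**
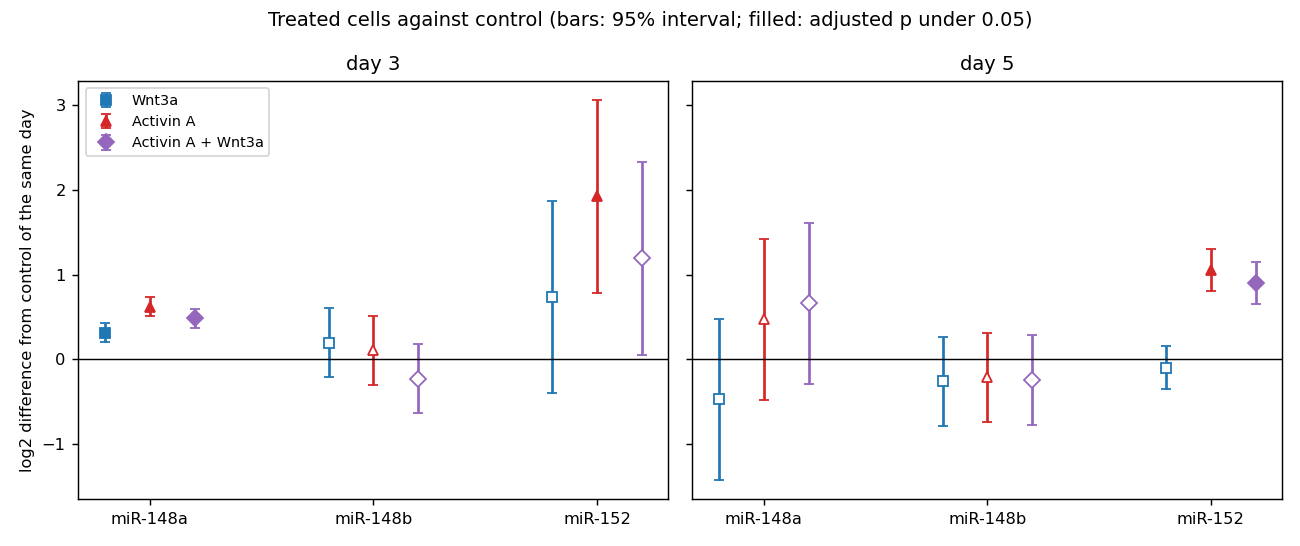
The log2 difference from control cells of the same day is plotted for each member and treatment with its 95% interval, filled where the adjusted p was under 0.05. On day 5 miR-152 is 1.05 and 0.91 higher with Activin A and both factors, while the wide miR-148a intervals of that day include the Wnt3a replicate 1 array.

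All 13 groups together differed for miR-148a (adjusted p = 0.00701) and miR-148b (adjusted p = 0.000397), as did 88.5% of the 373 miRNAs tested. No p is given for miR-152, which was at the floor on every array of 5 groups and entered the fit through the groups where it was detected. For miR-148a the group means ran from 6.01 in day 5 Wnt3a cells to 7.14 with both factors on day 5. The ranges of neighbours in this order overlapped except between both factors and Wnt3a on day 3, and between Wnt3a on day 1 and control on day 5. For miR-148b the order ran from 2.19 in ES cells to 5.22 with both factors on day 1, with overlap between all neighbours. For miR-152, day 5 with Activin A (5.36) and with both factors (5.21) stood apart from control on day 5 (4.30), and all groups below it overlapped a neighbour except Wnt3a on day 3 (2.97) against control on day 3 (2.23).

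Since the members share a seed, their levels relative to each other were compared on the same array, on the quantile-normalized scale. The log2 ratio of miR-148a to miR-148b was 1.499 to 2.09 without Activin A and 2.16 to 2.81 with it on day 3, and 0.51 to 1.58 against 2.02 to 2.35 on day 5. These ranges did not overlap, and the mean change was 0.56 on day 3 and 0.90 on day 5. For miR-152 to miR-148b the changes were 1.35 and 1.13, again with no overlap (-3.82 to -1.46 against -1.23 to -0.18 on day 3, and -1.04 to -0.21 against 0.21 to 0.60 on day 5). The -3.82 came from the control array on which miR-152 was not detected. The day 3 arrays with both factors lay on a slide with no other day 3 array, which limits the day 3 ratios. In a two-sided exact permutation test within Wnt3a state each of these 4 changes had p = 0.005, the smallest that 400 arrangements can give, and 0.0075 after adjustment over the 6 ratios. The ratio of miR-152 to miR-148a changed by 0.79 on day 3 (exact p = 0.05, adjusted 0.06) and 0.23 on day 5 (exact p = 0.505, adjusted 0.505), and its ranges overlapped. Without Wnt3a replicate 1 the day 5 value was 0.50 (adjusted p = 0.006), but its sign turned under other scalings (-0.17 with the 75th percentile), so no order of these members is given. Within the family, miR-148a and miR-152 thus rose relative to miR-148b in cells with Activin A.

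**Figure D4:**
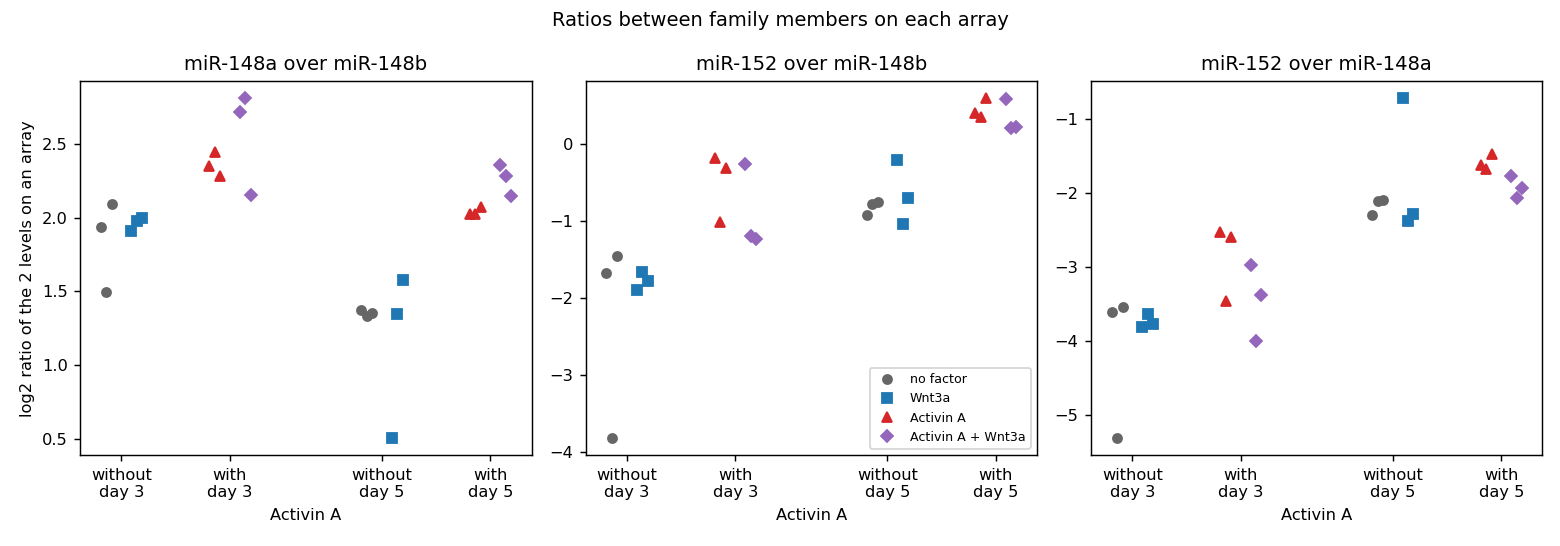
The log2 ratio of the levels of each pair of members is plotted for every array of days 3 and 5, without and with Activin A on the horizontal axis. The ratios to miR-148b do not overlap between arrays without and with Activin A on either day, while those of miR-152 to miR-148a do.

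Other miRNAs reported to act on DNA methyltransferases were measured beside the family: miR-29a, miR-29b and miR-29c, known for Dnmt3a and Dnmt3b, with miR-101a, miR-101b, miR-126-3p, miR-143, miR-185 and miR-342-3p. In the average effect of Activin A on day 3, 6 of the 8 tested rose and 1 fell, with a median of 0.34 beside -0.06 over all 326 miRNAs, of which 26.7% rose and 34% fell. On day 5, 5 of 9 rose and 2 fell, with a median of 0.43 beside -0.01 over all 368, of which 24.5% rose and 26.6% fell. miR-29b rose by 1.06 on day 3 (adjusted p = 8.77e-05) and 1.52 on day 5 (adjusted p = 0.00284). miR-29a rose by 0.27 and 0.92 and miR-29c by 0.42 and 0.29 on these days. miR-342-3p fell by 0.63 on day 3 and by 1.12 on day 5 (adjusted p = 8.33e-06), and miR-185 fell by 0.84 on day 5. miR-101a rose by 0.59 and miR-101b by 0.48 on day 3 and neither passed on day 5, and miR-126-3p rose by 0.21 and 0.68. The fifth of the day 5 calls was miR-143, which was at the floor on all arrays without Activin A and entered the test through the Activin A groups, so that its call carries no weight.

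Marker miRNAs of other cell types moved with these comparisons. On day 3 all 4 endoderm or epithelial markers (miR-375, miR-200a, miR-200b, miR-429) and all 5 ES markers (the miR-290 to miR-295 cluster) rose in the average effect of Activin A, 1 of 2 neural markers rose and the other fell, and the single fibroblast marker tested fell. The summed log2 level of the endoderm or epithelial list on that day was 8.22 to 8.34 in control and 8.56 to 8.62 with Wnt3a. It was 9.99 to 10.1 with Activin A and 9.96 to 10.04 with both factors. On day 5 the sum of this list was 6.70 to 6.71 in control and 7.03 to 7.35 with Wnt3a. It was 10.1 with Activin A and 10.1 to 10.2 with both factors, and all 4 rose in the average effect. The same sum was 8.02 to 8.20 in ES cells and 8.96 to 9.09 in day 1 control cells, so it fell in control cells. The 5 ES markers were at 12.8 in control and 14.5 to 14.7 with Activin A, and 4 of 5 were higher with Activin A. Both neural markers, miR-124 and miR-9, fell, from a sum of 8.75 to 8.89 in control to 5.84 to 5.98 with Activin A. The 5 fibroblast markers (miR-143, miR-145, miR-199a-3p, miR-199a-5p, miR-214) were at 8.60 to 8.86 in ES cells and 9.74 to 9.89 on day 1. In day 3 control cells they were at 4.69 to 5.06. On day 5 they were at 4.94 to 5.09 in control and 3.54 to 5.37 with Wnt3a. With Activin A they were then at 4.81 to 4.92 and with both factors at 6.005 to 6.11. Comparisons with ES or day 1 cells thus also hold a change in fibroblast markers, whose part in them was not tested. In the average effect of Activin A on day 5, 2 of the 4 fibroblast markers tested rose, miR-143 among them, and 0 fell. The part of these cell types in the family's values was not tested.

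Across the 13 group means, the 3 miRNAs most like each member were named by Pearson's r among 370 compared, as a description. For miR-148a they were miR-200b (r = 0.87), miR-96 (0.86) and miR-429 (0.84). For miR-148b they were miR-30e* (0.96), miR-425 (0.93) and miR-20a* (0.90), which like it were at or near the floor in ES cells. For miR-152 they were miR-101b (0.96), miR-542-3p (0.95) and miR-301a (0.94). miR-152 was at the floor in ES cells and on day 1, and miR-542-3p was detected on no array of 6 groups. These r thus rest in part on groups at the floor. The group means share slides and scaling. Among the family itself r was 0.11 to 0.24. The sequence of miR-301a is shown because it holds the family's seed letters, here in capitals, shifted to bases 1 to 7.
mmu-miR-301a-3p: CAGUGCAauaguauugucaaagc
Of the 1679 mature miRNAs, 7 had these letters at bases 1 to 7, and 1.01% held them anywhere.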

How the data were processed

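Agilent 1-colour (Cy3) mouse miRNA arrays of 39 samples in 13 groups were analysed. Per the labels, Feature Extraction 9.5.3.1 was used, and the deposited file headers give 10.7.3.1. The deposited intensity of a miRNA is its background-subtracted total over detected probes (0.1 where undetected), and background medians were 35 to 42. The authors' table of log2 values was used as an alternative. Signals were quantile-normalized (R 4.3.3, limma 3.58.1), floored at 2 and taken to log2. The detection flags of the files (unit other, per the file headers) selected miRNAs detected on 2 of 3 arrays of a group: 373 over all arrays, and 240, 326 and 368 on days 1, 3 and 5, with 2, 3 and 3 members. Time courses were fitted in limma on 39 arrays and treatments on the 12 arrays of a day, with Benjamini-Hochberg adjustment over all miRNAs tested. A call is an adjusted p under 0.05. A further limit of more than 2-fold, planned for these calls and used in the paper, was not applied. The average effect of Activin A is the mean of its effect with and without Wnt3a, and the interaction is the difference between these. The number of arrays limits the precision. The steps were tested on simulated data. The text names the members and their star strands, the DNA methyltransferase list, with values for those called, the 3 miRNAs most like each member, and the marker lists. The members and lists were chosen with earlier results of these data known. Alternatives covered scaling, background, floor, filter, test, slide, replicate number, probes and each array left out. The matching of the authors' columns to arrays, the random slide block and changes relative to the median miRNA were added after the data were seen. Replicate numbers did not pair the samples (mean correlation of same-numbered deviations -0.009, -0.015 and -0.086 on days 1, 3 and 5). Arrays lay on 5 slides scanned on 2 days.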

Additional observations from a re-analysis of the deposited data

Results flagged for a closer look

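The interaction of Activin A and Wnt3a on miR-148a on day 3 was -0.45 on the log2 scale. It stands here because the effect of Wnt3a differed between cells without Activin A (0.31) and with it (-0.14) by the test of the difference itself (adjusted p = 0.00238). The corresponding day 3 interactions were -0.53 for miR-148b (adjusted p = 0.157) and -1.47 for miR-152 (adjusted p = 0.161), and neither passed. For miR-148b it was -0.76 with the brighter probe alone (adjusted p = 0.0168) and -0.74 without replicate 3 of both factors (adjusted p = 0.0311), and for miR-152 the adjusted p was 0.0347 in the fit of all 39 arrays, so no contrast between the members is drawn. Over 15 alternative settings the miR-148a value ran from -0.45 to -0.18, with adjusted p from 0.00107 to 0.693. It did not pass with the authors' columns as named (-0.18, adjusted p = 0.0879) or in the fit of all 39 arrays (adjusted p = 0.693). The slide of the arrays with both factors cannot be told apart from this interaction.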

How the results depend on the processing

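Over 16 planned or added settings and each array left out, 1627 of 1772 values kept their direction and their side of the threshold, 71 no longer passed, 43 newly passed and 31 turned their sign. The day 5 effect of Activin A on miR-152 passed under all settings run. The average effect of Activin A on miR-148a on day 5 no longer passed under the 75th percentile over miRNAs detected on all arrays (0.68), log2 quantile normalization (0.85), either form of the authors' table (0.86), a slide block (0.82), and at 0.80 with a floor of 10, no detection filter, an unmoderated test or the replicate block (adjusted p = 0.0530). It also failed in 9 of 12 omissions of an array, each of which kept Wnt3a replicate 1, and over all 12 it ran from 0.49 to 0.98. On day 3 it was 0.40 and did not pass in the fit of 39 arrays. The replicate block changed no other of these average effects. The unmoderated test left miR-148b in control cells on day 5 against ES cells at 2.93, not passing.

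With the brighter probe alone the miR-152 average effect on day 3 was 0.72 and did not pass, and that of miR-148b was -0.28 and passed on day 3 and 0.023 on day 5. Undetected arrays stayed at the floor in this setting. The same setting turned control day 5 against ES (-0.39) and day 3 (-0.28) for miR-148a, day 5 against day 3 for miR-148b (-0.0075) and the day 5 miR-152 interaction (0.16). The 75th percentile over all miRNAs gave -0.29 and -0.15 for the former 2. The day 5 change of miR-152 over miR-148a turned to -0.17 with either 75th percentile, -0.12 with normexp and -0.057 with the brighter probe, and on day 3 normexp gave -0.14 (adjusted p = 0.006). Normexp also turned miR-152 with Wnt3a on day 3 (-0.010), and the 75th percentile turned miR-148b with Activin A on day 3 (-0.063). The cause of these changes was not tested.

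With the authors' table as its columns are named, the 18 exchanged columns turned both factors against Activin A for miR-148a (0.13 on day 3, -0.18 on day 5) and miR-152 (0.88, 0.21), the interactions of miR-152 (0.20, 0.38) and miR-148b on day 3 (0.20), and miR-148b on day 3 with Activin A (-0.34) and both factors (0.20) against control.

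Omitting arrays singly gave ranges of -0.26 to -0.083 and -0.25 to 0.024 for the average effect on miR-148b on days 3 and 5, -0.022 to 0.11 for miR-148a in control day 5 against ES cells, and 0.50 to 0.95 and 0.079 to 0.50 for miR-152 over miR-148a on days 3 and 5. It gave -0.82 to 0.15 for miR-148a and -0.51 to 0.039 for miR-148b with Wnt3a on day 5, -0.13 to 0.047 for the day 5 interaction of miR-152 and -0.0078 to 0.24 for miR-148b with Activin A on day 3. The slide block could not be fitted for both factors against the other treatments of day 3. Signals near the detection limit bound what can be said of miR-152 before day 5 and of miR-148b in ES cells.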
